A study of Homo sapiens with 4 samples.

Results

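CXCL1, CXCL2, CXCL3, CXCL5, CXCL6 and CXCL8 are the neutrophil attracting chemokine genes that lie in one cluster on chromosome 4, and the data described here are the open chromatin peaks at these 6 genes. A peak was taken as belonging to a member when it shared at least 1 base with the GENCODE gene body (GRCh38) or with the 10 kb upstream of it, and the stretch from the CXCL8 window to the CXCL2 window, 378.7 kb at chr4:73730519-74109196, was also read as one locus. The member windows held 4 of the 59629 peaks listed for WT, 5 of 67470 for WT-IFN-γ, 4 of 63203 for sgFLI1 and 4 of 59923 for sgFLI1-IFN-γ. The whole locus held 6, 7, 8 and 8 peaks in the same order, which joined into 10 separate regions. The 4 libraries came from HK1, an established line of nasopharyngeal carcinoma (an epithelial tumour of the upper throat), and open DNA was read by ATAC-seq, where a transposase inserts sequencing adapters into accessible chromatin. WT cells were wild type for FLI1 (an ETS family transcription factor), and sgFLI1 cells had it knocked out with a guide RNA, which peak lists cannot check. Cells of each genotype were left untreated or given interferon gamma (IFN-γ) for 24 h. Whether the sgFLI1 cells were 1 clone or a pool is not given in the sources used here. Where 4 values follow one another below, the first is WT, the second WT-IFN-γ, the third sgFLI1 and the last sgFLI1-IFN-γ. Each of the 4 groups had 1 peak list, so no group difference was tested and every interval below covers counting error alone.

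The proteins made from these genes are small secreted chemokines whose glutamate-leucine-arginine motif lets them bind the receptor CXCR2 on neutrophils, and some of them also bind CXCR1. Their promoters are textbook targets of NF-κB, with AP-1 and C/EBP factors acting beside it at some members, and epithelial and tumour cells raise them after interleukin 1, TNF or injury. IFN-γ is best known for the other branch of the family, CXCL9, CXCL10 and CXCL11, which attract T cells.

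The libraries were of like depth. Their tag density, read from the lowest local background and the shortest listed peak, which assumes that the shortest peak equals the tag length used by the peak caller, ran from 6.86 tags per kb in sgFLI1-IFN-γ to 8.838 in WT-IFN-γ, a 1.288-fold range. Markers of cell type were read by promoter peaks within 1 kb of a start site: EPCAM (an epithelial adhesion molecule) had one in all 4 lists, and 2 or 3 of 5 epithelial markers had one in each, with KRT14 and TP63 in none. Of the leukocyte markers 1 of 4 (CD14) and of the fibroblast markers 1 of 2 (COL1A1) had a promoter peak in every library, while the endothelial marker CDH5 had one in WT and sgFLI1-IFN-γ. Since 61.2 to 62.7% of all protein-coding genes had such a peak, these counts do not tell the cell types apart. The part of other cell types in the values below was not tested.

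The promoter sequences come first because all 6 members carry the same 9-letter run close to the start site. They are from the RefSeq promoter table (GRCh38.p14), in which all 6 members were found, and are given in the direction of transcription from 250 bases before the start, leaving out annotated untranslated sequence. Capitals mark matches to GGANTTTCC (an NF-κB motif) or to TGACTCA (an AP-1 motif).
CXCL8, chr4:73740319-73740518, plus strand: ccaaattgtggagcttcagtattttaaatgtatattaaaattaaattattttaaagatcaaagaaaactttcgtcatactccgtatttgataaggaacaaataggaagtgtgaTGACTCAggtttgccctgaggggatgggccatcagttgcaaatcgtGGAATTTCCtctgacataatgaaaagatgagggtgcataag
CXCL6, chr4:73836428-73836639, plus strand: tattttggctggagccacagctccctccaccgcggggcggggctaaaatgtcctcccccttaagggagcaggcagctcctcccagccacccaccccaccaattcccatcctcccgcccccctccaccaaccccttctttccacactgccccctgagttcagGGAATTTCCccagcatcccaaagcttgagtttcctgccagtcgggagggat
CXCL1, chr4:73869143-73869392, plus strand: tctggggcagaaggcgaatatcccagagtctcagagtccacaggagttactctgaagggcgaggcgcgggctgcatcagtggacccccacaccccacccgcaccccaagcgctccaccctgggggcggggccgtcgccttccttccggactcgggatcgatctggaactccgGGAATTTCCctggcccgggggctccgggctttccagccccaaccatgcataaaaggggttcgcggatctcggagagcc
CXCL5, chr4:73998678-73998927, minus strand: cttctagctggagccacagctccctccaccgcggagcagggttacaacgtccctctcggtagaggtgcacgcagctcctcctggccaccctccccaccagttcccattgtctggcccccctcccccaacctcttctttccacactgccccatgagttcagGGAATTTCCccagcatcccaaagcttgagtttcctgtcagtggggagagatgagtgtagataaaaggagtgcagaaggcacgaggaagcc
CXCL3, chr4:74038690-74038939, minus strand: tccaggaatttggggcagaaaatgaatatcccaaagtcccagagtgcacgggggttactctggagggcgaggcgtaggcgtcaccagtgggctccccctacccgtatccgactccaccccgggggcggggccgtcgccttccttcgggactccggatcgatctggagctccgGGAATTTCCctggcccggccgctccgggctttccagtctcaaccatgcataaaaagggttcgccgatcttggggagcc
CXCL2, chr4:74099196-74099445, minus strand: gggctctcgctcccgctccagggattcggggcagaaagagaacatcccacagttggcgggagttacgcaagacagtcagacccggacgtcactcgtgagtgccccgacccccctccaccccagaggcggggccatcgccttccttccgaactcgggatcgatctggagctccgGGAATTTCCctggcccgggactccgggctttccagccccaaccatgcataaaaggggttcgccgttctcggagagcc

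Each of the 6 promoters held GGAATTTCC, and it began at like places: position -91 in CXCL8, -90 in CXCL5, -89 in CXCL6, -78 in CXCL1, -78 in CXCL3 and -77 in CXCL2, counted from the start site. On either strand, GGANTTTCC matched in 1.64% of the 35116 promoters of the table, read over 250 bases before to 50 after the start. The members are not independent of one another here, since their promoters are alike. CXCL1 and CXCL3 shared 84.3% of 300 bases, CXCL6 and CXCL5 83.7%, CXCL3 and CXCL2 78.0% and CXCL1 and CXCL2 75.0%, whereas CXCL8 shared 38.7 to 43.3% with each of the others. CXCL8 was also the only member with the AP-1 letters TGACTCA (position -137, 4.95% of all promoters), and 0.111% of all promoters held both motifs. The C/EBP letters TTGCNNAA matched in CXCL2 alone (position -188, 10.5% of all promoters). TTCNNNGAA, the letters of a STAT motif, matched in CXCL6 (-94) and CXCL5 (-95), there overlapping the NF-κB match, and in 7.66% of all promoters. The ETS letters CCGGAAGT matched in 0 of 6 members and in 4.14% of all promoters. A match is a description of the letters, and no match says only that they are not in this window.

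A promoter peak was listed for 3 of the 6 members. CXCL8, CXCL3 and CXCL2 had one in all 4 libraries, and CXCL1, CXCL5 and CXCL6 had none in any library. Across 19970 protein-coding genes, 61.9% had a promoter peak in WT, 62.7% after IFN-γ, 61.9% in sgFLI1 and 61.2% after IFN-γ. With only 6 genes, 3 of 6 does not set the members apart from these shares. The share among promoters with the NF-κB letters was not computed. The CXCL1 window (gene ENSG00000163739.5 at chr4:73869393-73871308, plus strand) and the CXCL5 window (ENSG00000163735.7 at chr4:73995642-73998677, minus strand) held no peak at all in the 4 lists. Of the 6 member windows 3, 4, 3 and 3 held a peak. Among all protein-coding genes 83.1, 84.0, 83.3 and 82.7% had a peak in a window of the same kind. Alignments of low mapping quality had been removed before peak calling, so the uniqueness of the DNA was counted: of all 35-base words within 500 bp of the start site, 93.4% occurred once in the genome for CXCL1, 96.5% for CXCL5 and 90.3% for CXCL6. The share was lower at the listed promoters of CXCL3 (82.2%) and CXCL2 (80.4%), while at CXCL8 every such word occurred once. Exact words do not stand in for the mapping filter applied to the reads. The part of mapping in the unlisted promoters was not tested. In the locus the peaks numbered 1.58, 1.85, 2.11 and 2.11 per 100 kb, beside 1.11, 1.27, 1.13 and 1.08 on chromosome 4 and 1.97, 2.23, 2.09 and 1.98 in the genome.

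**Figure D1:**
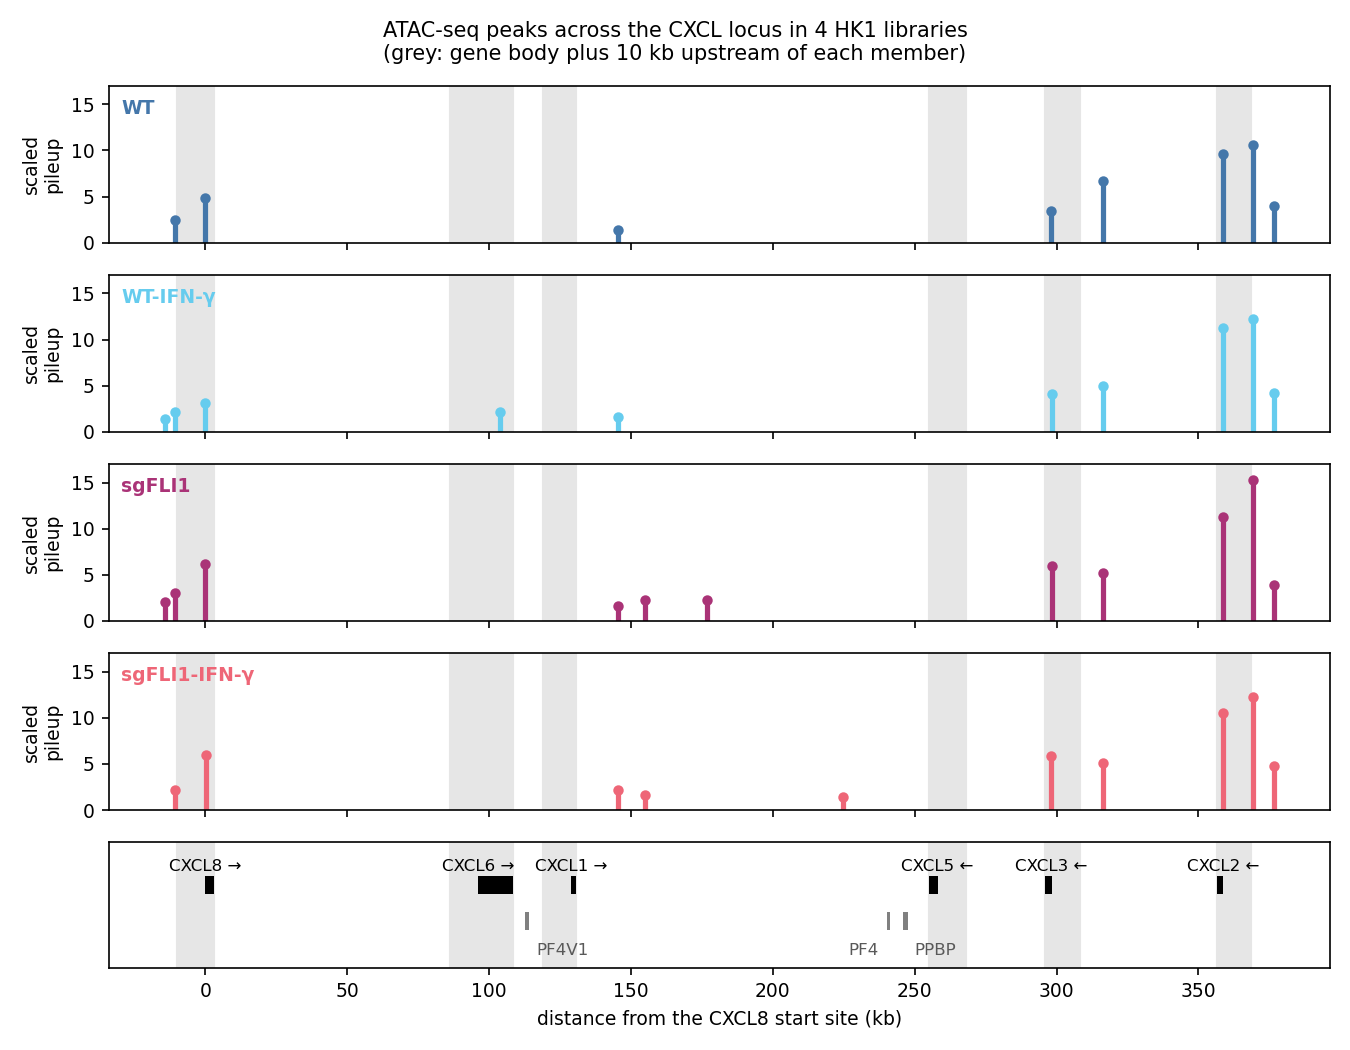
Peaks across the CXCL locus, 1 panel for each library: each stem stands at a peak summit, the horizontal axis is the distance in kb from the CXCL8 start site and the vertical axis is the summit pileup divided by the tags per kb of the library. Grey marks the member windows and the lowest panel the genes, with arrows for the direction of transcription. The CXCL1 and CXCL5 windows are empty in all 4 panels, the CXCL6 window holds a stem in WT-IFN-γ only, and the tallest stems stand at and upstream of CXCL2.

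The height of a peak is given here as its pileup, the number of extended tags over the summit, and, to compare libraries, as the scaled pileup, which is the pileup divided by the tags per kb of the library. Intervals are exact 95% Poisson intervals.

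CXCL8 (ENSG00000169429.12, chr4:73740519-73743716, plus strand) encodes interleukin 8, the most studied neutrophil attractant of the group. Its window held 1 peak in each library, over the start site and the 5′ untranslated region, with 39 tags in WT and 28 after IFN-γ, and with 43 in sgFLI1 and 41 after IFN-γ. The scaled pileups were 4.85 (3.45-6.63), 3.17 (2.11-4.58), 6.2 (4.49-8.36) and 5.98 (4.29-8.11). WT-IFN-γ was the lowest and sgFLI1 the highest, and all 4 intervals overlapped. The peak reached percentile 68.1, 59.9, 77.2 and 80.5 of all peaks of its library by q-value. Its summit lay upstream of the start site in both WT libraries, at -103 in WT and -100 in WT-IFN-γ, close to the NF-κB match at -91 shown above. In the sgFLI1 libraries it lay downstream, at 32 untreated and 80 after IFN-γ. The peak was 858, 330, 554 and 817 bp wide, and no error can be given for a summit position with 1 library a group.

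CXCL3 (ENSG00000163734.4, chr4:74036589-74038807, minus strand) encodes GRO gamma, a close paralogue of CXCL1 and CXCL2. It too had 1 peak in each library, over the promoter, with 28 tags in WT and 36 after IFN-γ, and with 41 in sgFLI1 and 40 after IFN-γ. Scaled, these were 3.48 (2.31-5.03), 4.07 (2.85-5.64), 5.91 (4.24-8.02) and 5.83 (4.17-7.94). Both sgFLI1 values were above both WT values, and their intervals overlapped those of WT and WT-IFN-γ. The summits lay at -67, -134, -109 and 81 from the canonical start, so 3 of 4 lay upstream.

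CXCL2 (ENSG00000081041.9, chr4:74097040-74099196, minus strand) encodes GRO beta and was the only member with 2 peaks in every library. Its promoter peak had 77 tags in WT and 99 after IFN-γ, and 78 in sgFLI1 and 72 after IFN-γ, or scaled pileups of 9.57 (7.56-12.0), 11.2 (9.1-13.6), 11.3 (8.89-14.0) and 10.5 (8.21-13.2). These 4 values lay closer together than those of CXCL8 or CXCL3, and all 4 intervals overlapped. The summits fell between -170 and -126, a narrow span upstream of the start site. A further peak, centred 10.4 kb upstream of CXCL2, met the window by its edge only, with the summit outside it. It held 85, 108, 106 and 84 tags, scaled to 10.6 (8.44-13.1), 12.2 (10.0-14.8), 15.3 (12.5-18.5) and 12.2 (9.77-15.2), so sgFLI1 was the highest.

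**Figure D2:**
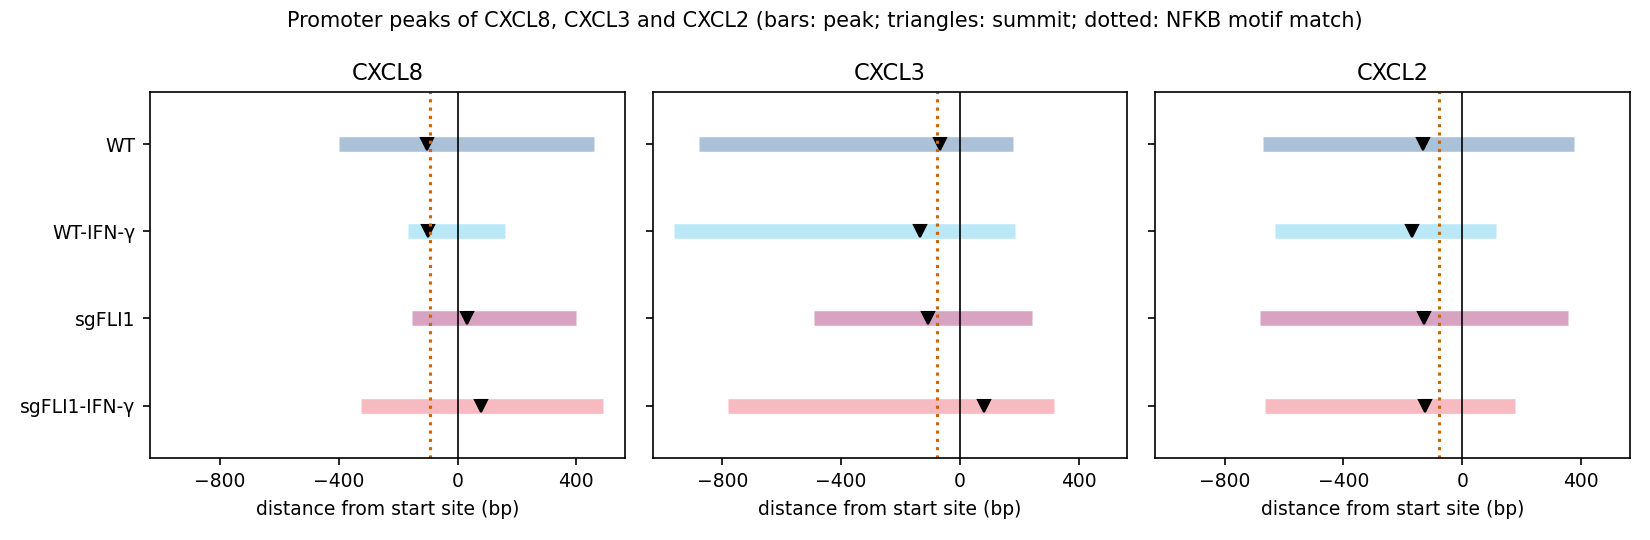
Position of the promoter peaks of CXCL8, CXCL3 and CXCL2 by library, in bp from the start site and in the direction of transcription: bars span the listed peak, triangles mark its summit and the dotted line marks the first base of the NF-κB match. The CXCL8 summits lie at -103 and -100 in the WT libraries and at 32 and 80 in the sgFLI1 libraries, while those of CXCL2 stay between -170 and -126.

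CXCL6 (ENSG00000124875.10, chr4:73836640-73849064, plus strand) encodes granulocyte chemotactic protein 2. Its window held a peak in WT-IFN-γ alone, 545 bp at chr4:73844267-73844811 with 19 tags (11.4-29.7), at percentile 39.6 of that library. The summit lay 7857 bp inside the gene, in an intron of a longer non-coding transcript and past the end of the canonical one, and within 10 kb upstream of the neighbouring PF4V1. At an equal tag density, the depth of the other libraries would give 17.3 tags in WT, and 14.9 in untreated and 14.7 in treated sgFLI1 cells, above the lowest pileups listed at a like background (8, 7 and 7). A region that is not listed has no deposited value, so its level there is not known.

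Outside the member windows, 5 more regions lay in the locus, all between genes. The region 18.3 kb upstream of CXCL3 (chr4:74056266-74057722) was listed in all 4 libraries with 54, 44, 36 and 35 tags, scaled to 6.71 (5.04-8.76), 4.98 (3.62-6.68), 5.19 (3.64-7.19) and 5.1 (3.55-7.1). WT was the highest, and the intervals overlapped. The region 16.4 kb downstream of the CXCL1 start (chr4:73885526-73886205) was the nearest listed peak to CXCL1 and the lowest of the shared regions, with 11, 14, 11 and 15 tags. The other 3 regions had no counterpart in the WT libraries. The region 26.0 kb past the CXCL1 start was listed with 16 tags in sgFLI1 and 11 after IFN-γ, the region 48.0 kb past it in sgFLI1 with 16 tags, and a region 33.4 kb past the CXCL5 start in sgFLI1-IFN-γ with 10. At an equal density the region at 26.0 kb would give 18.6 tags (10.6-30.1) in WT and 20.4 (11.7-33.1) in WT-IFN-γ. The lowest listed pileup was 8 in both. These counts start from the 16 tags of sgFLI1, the higher of the libraries that listed it. The region past CXCL5 would give 11.7 (5.62-21.6) in WT, 12.9 (6.18-23.7) in WT-IFN-γ and 10.1 (4.85-18.6) in sgFLI1. Its lower bounds lay under the lowest listed pileups of 8, 8 and 7. Just beyond the limit of the rule, a peak 10.8 kb upstream of CXCL8 was listed in all 4 libraries with 20, 19, 21 and 15 tags.

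In each library the peaks at and 10.4 kb upstream of CXCL2 were the highest of the 6 shared regions, followed by the CXCL8 and CXCL3 promoters and the region 18.3 kb upstream of CXCL3 in varying order. The peak 16.4 kb past the CXCL1 start came last. Both CXCL2 peaks overlapped in their intervals in every library. So did the 3 regions of the middle group, except that in WT the CXCL3 promoter (up to 5.03) and the CXCL3 distal region (from 5.04) did not. The middle group and the CXCL2 promoter overlapped in WT, where the CXCL3 distal region reached up to 8.76 and the CXCL2 promoter down to 7.56, and in no other library.

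**Figure D3:**
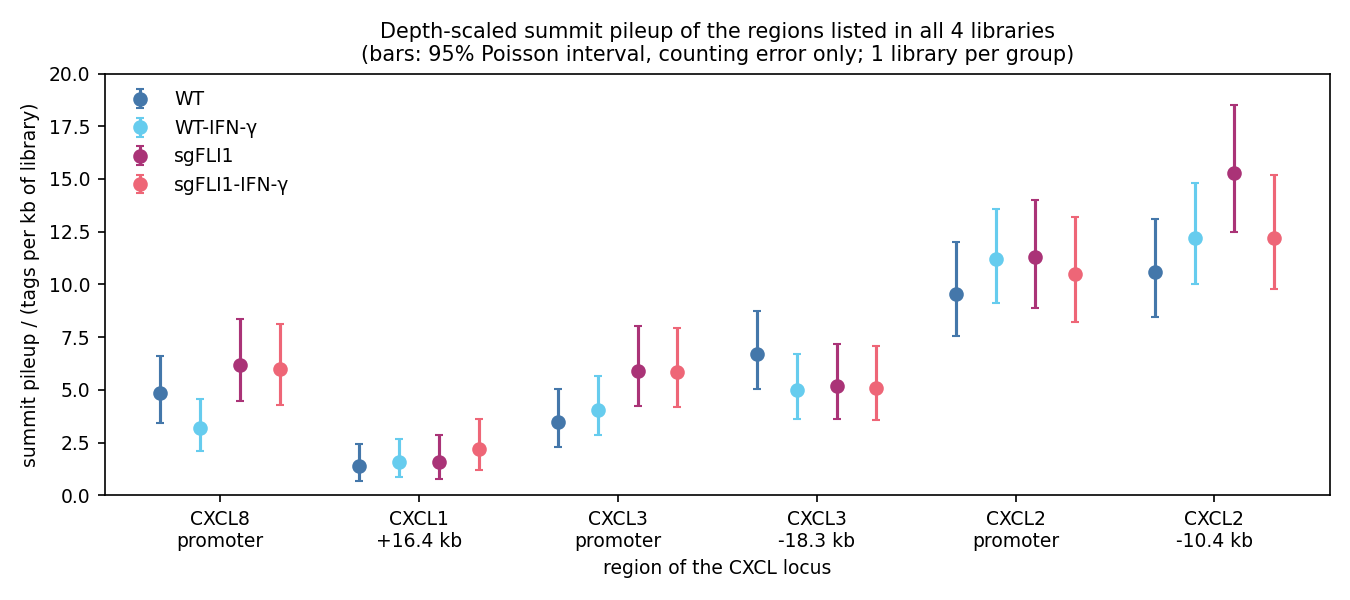
Scaled pileups (summit pileup divided by tags per kb) of the 6 regions of the locus listed in all 4 libraries. Each point is from 1 peak list and bars are exact 95% Poisson intervals. CXCL2 regions sit between 9.57 and 15.3, the CXCL8 and CXCL3 promoters between 3.17 and 6.2, and the peak past CXCL1 between 1.37 and 2.19.

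The sequences of 4 of these regions are shown, some listed in a single library and others the strongest away from a promoter. The regions 26.0 kb past the CXCL1 start and 33.4 kb past the CXCL5 start were also listed in some libraries only. They are not shown and held no match to the 5 motifs within 100 bp of the summit, while all 4 regions shown held a match. Each sequence is the 201 bases around the highest scaled summit, plus strand, GRCh38, with matches to the 5 motifs in capitals.
CXCL6 intragenic (WT-IFN-γ only), chr4:73844435-73844635: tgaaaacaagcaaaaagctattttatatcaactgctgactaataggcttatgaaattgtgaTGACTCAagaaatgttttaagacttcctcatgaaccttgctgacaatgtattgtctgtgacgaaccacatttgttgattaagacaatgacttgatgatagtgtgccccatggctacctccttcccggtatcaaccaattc
CXCL1 48.0 kb downstream (sgFLI1 only), chr4:73917267-73917467: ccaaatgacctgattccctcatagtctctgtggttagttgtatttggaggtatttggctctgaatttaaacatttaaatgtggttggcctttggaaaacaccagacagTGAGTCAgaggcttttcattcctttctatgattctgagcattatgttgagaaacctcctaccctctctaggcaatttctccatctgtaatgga
CXCL3 18.3 kb upstream (all libraries), chr4:74056870-74057070: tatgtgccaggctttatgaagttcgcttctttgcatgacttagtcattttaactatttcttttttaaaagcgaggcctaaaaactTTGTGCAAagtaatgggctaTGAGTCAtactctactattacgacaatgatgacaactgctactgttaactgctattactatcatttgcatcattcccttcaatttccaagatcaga
CXCL2 10.4 kb upstream (all libraries), chr4:74109521-74109721: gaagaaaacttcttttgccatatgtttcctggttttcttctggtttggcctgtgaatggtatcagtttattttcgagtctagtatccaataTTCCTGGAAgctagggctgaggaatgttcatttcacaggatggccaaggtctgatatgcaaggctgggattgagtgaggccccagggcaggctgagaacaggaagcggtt

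Within 100 bp of the summit, the AP-1 letters matched in 3 of the 10 locus regions: the CXCL6 intragenic region, the CXCL1 region at 48.0 kb and the CXCL3 region at 18.3 kb. Between 17.8 and 20.2% of all peaks of a library held them. The NF-κB letters matched in 2, the CXCL3 and CXCL2 promoters, beside 1.13 to 1.23% of all peaks. At CXCL8 they fell outside that distance, since the region was centred on the sgFLI1 summit. The C/EBP letters matched at the CXCL2 promoter and in the CXCL3 distal region (9.36 to 10.7% of all peaks), and the STAT letters as TTCCTGGAA in the CXCL2 region at 10.4 kb (5.57 to 6.89%). The ETS letters, the kind FLI1 binds, matched in 0 of 10 regions and in 1.28 to 1.42% of all peaks. With so low a share, 0 of 10 says little about ETS sites, and only the exact letters CCGGAAGT were searched.

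The first comparison asked what IFN-γ did at the locus where FLI1 was intact. Of the 7 locus peaks after IFN-γ, 1 had no counterpart in WT, the CXCL6 intragenic peak, while 25.2% of all WT-IFN-γ peaks had none. Of the 6 WT peaks, 0 lacked a counterpart in WT-IFN-γ, beside 15.9% of all. Among the 6 shared regions none differed by 2-fold in scaled pileup, and 2.72% of all shared peaks did. The CXCL8 promoter had the lowest ratio, 0.653 (0.387-1.09) or -0.61 on the log2 scale, at percentile 6.35 of all shared peaks, and it turned to 0.22 when each pileup was divided by its own local background, which was 3.76 tags in WT and 2.32 in WT-IFN-γ. The CXCL2 promoter had 1.17 (0.86-1.6), a log2 ratio of 0.23 that turned to -0.39 on the local background scale. CXCL3 gave 1.17 (0.694-1.99) at the promoter. At its distal region the ratio was 0.742 (0.486-1.13), a log2 ratio of -0.43 that became 0.23 on the local background scale. All 6 intervals held 1.

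In the sgFLI1 cells the same treatment left 1 of 8 sgFLI1-IFN-γ peaks without a counterpart in sgFLI1, the region 33.4 kb past CXCL5, beside 18.0% of all. Conversely, 1 of 8 sgFLI1 peaks, the CXCL1 region at 48.0 kb, had none in sgFLI1-IFN-γ, beside 22.2% of all. No shared region reached 2-fold, and 0.722% of all shared peaks did. The CXCL8 promoter had a ratio of 0.964 (0.613-1.51), the CXCL3 promoter 0.986 (0.622-1.56) and the CXCL2 promoter 0.933 (0.668-1.3). On the log2 scale these were -0.05, -0.02 and -0.1, and they became 0.08, 0.12 and 0.04 once centred on the median of all shared peaks (-0.14). All 7 intervals of this comparison held 1.

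The second pair of comparisons asked what loss of FLI1 did. In untreated cells 2 of 8 sgFLI1 peaks had no counterpart in WT, the CXCL1 regions at 26.0 and 48.0 kb, beside 25.3% of all, and 0 of 6 WT peaks had none in sgFLI1, beside 21.4%. None of the 6 shared regions reached 2-fold, and 5.96% of all shared peaks did. The CXCL3 promoter was higher in sgFLI1 by 1.7-fold (1.03-2.85), a log2 ratio of 0.76 at percentile 92.1, and its interval left out 1. So did that of the peak 10.4 kb upstream of CXCL2, at 1.45-fold (1.08-1.95). The CXCL8 promoter had a ratio of 1.28 (0.81-2.03) and the CXCL2 promoter 1.18 (0.847-1.63). The CXCL3 distal region was lower at 0.774 (0.493-1.2), a log2 ratio of -0.37 that became 0.26 on the local background scale. Shared peaks within 5 Mb of the locus had a median log2 ratio of 0.28 over 90 pairs, near the 0.3 of the locus itself, and the genome had 0.05. The lower bound of the CXCL3 promoter on the log2 scale (0.04) lay under both medians, and that of the CXCL2 upstream peak (0.11) under the median of the 5 Mb around the locus.

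Under IFN-γ, 2 of 8 sgFLI1-IFN-γ peaks had no counterpart in WT-IFN-γ, the CXCL1 region at 26.0 kb and the CXCL5 region at 33.4 kb, beside 19.8% of all. Of the 7 WT-IFN-γ peaks, the CXCL6 intragenic one had none in sgFLI1-IFN-γ, beside 29.0% of all. Again no shared region reached 2-fold, and 6.23% of all shared peaks did. The CXCL8 promoter was 1.89-fold higher in sgFLI1-IFN-γ (1.14-3.17), a log2 ratio of 0.92 at percentile 96.1, and on the local background scale the log2 ratio was 0.23. The CXCL3 promoter had 1.43 (0.889-2.31), a log2 ratio of 0.52 that became 0.07 on the local background scale. The CXCL2 promoter had 0.937 (0.682-1.28), a log2 ratio of -0.09 that became 0.6 on that scale. Shared peaks within 5 Mb of the locus had a median log2 ratio of 0.15 over 92 pairs. The median was 0.25 for the locus and -0.02 for the genome. Across the 4 comparisons, which share libraries, 3 of 25 intervals left out 1. All 3 were ratios of an sgFLI1 to a WT library. The share of all shared peaks with such an interval was not computed, so this count has no background. The log2 ratios of all shared peaks also spread more between genotypes than between treatments. Their 5th to 95th percentiles were -0.73 to 0.93 untreated and -0.86 to 0.82 under IFN-γ, beside -0.67 to 0.65 for IFN-γ in WT and -0.64 to 0.43 in sgFLI1.

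**Figure D4:**
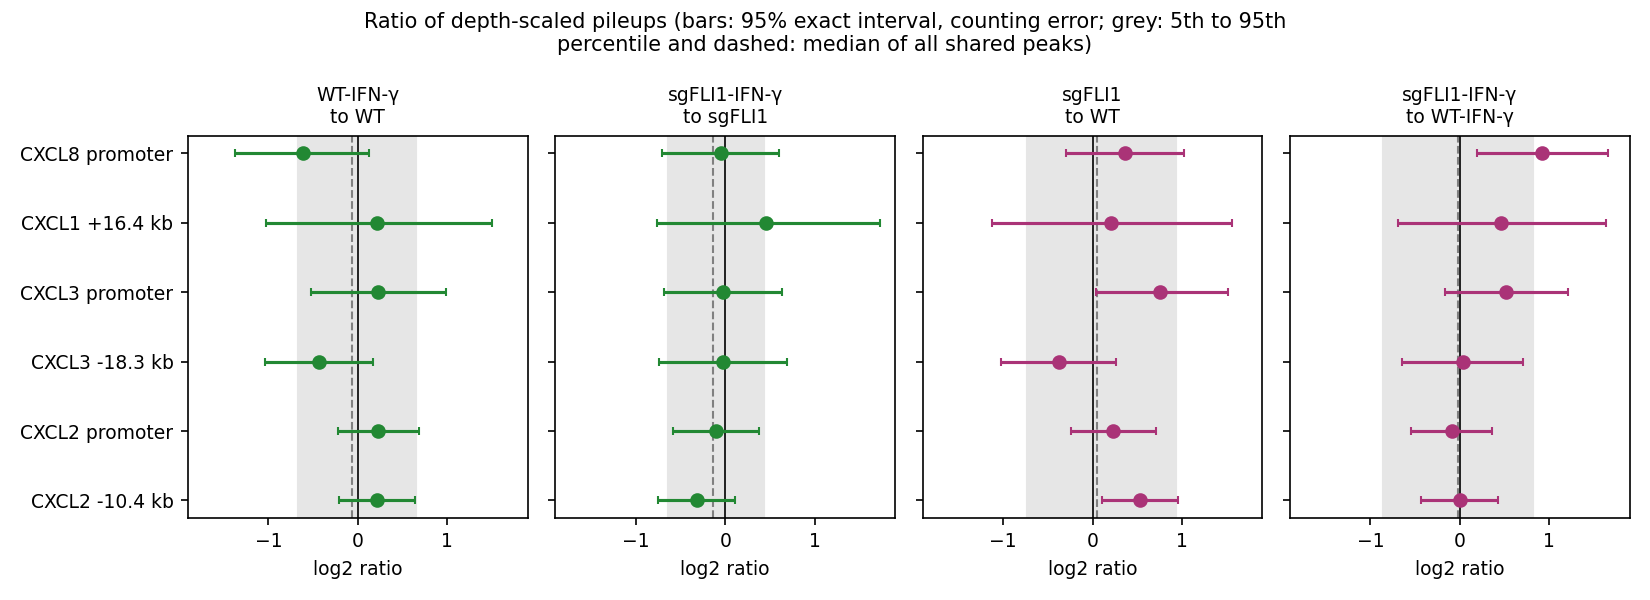
Log2 ratios of scaled pileups for the 6 shared regions in the 4 comparisons, with exact 95% intervals for counting error. Grey spans the 5th to the 95th percentile and the dashed line marks the median of all shared peaks. The CXCL8 promoter at 0.92 in sgFLI1-IFN-γ against WT-IFN-γ lies beyond the grey span, which ends at 0.82, but has 0.23 on the local background scale. The peak 16.4 kb past the CXCL1 start at 0.46 in sgFLI1-IFN-γ against sgFLI1 also lies beyond its span, which ends at 0.43. The CXCL3 promoter at 0.76 in sgFLI1 against WT lies within the span.

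The receptors and related chemokine genes were read in the same way and are given by name after their values were seen. CXCR2 had no peak in any library. CXCR1 had 1 peak shared by all 4, at -2127 bp from its start site, with 17, 14, 17 and 15 tags, and a further one at -6476 bp with 9 tags in sgFLI1 only. ACKR1, a decoy receptor that binds CXC and CC chemokines, had 1 with 28, 28, 34 and 32 tags. Of the other CXC genes inside the locus, PF4 and PPBP (platelet chemokines) had none, and PF4V1 had the CXCL6 intragenic peak. Among the IFN-γ-inducible branch CXCL9 and CXCL10 had no peak, while CXCL11 had a promoter peak in WT-IFN-γ alone, with 17 tags. Of all WT-IFN-γ peaks, 25.2% had no counterpart in WT and 29.0% had none in sgFLI1-IFN-γ. CXCL11 also had a distal peak in all 4 with 25, 31, 22 and 24 tags.

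Of 21 genes that encode inducers of the members or the NF-κB, AP-1 and C/EBP factors, 20 had a peak in every library and TNF had none, beside 79.0% of all protein-coding genes with a peak in every library in a window of the same kind. Their windows held 38, 41, 39 and 36 peaks, in 50 regions. Those listed in both libraries of 1 genotype or of 1 treatment only, or at least 2-fold apart with Poisson intervals that did not overlap, were 6 regions at 5 genes. That is 12.0%, near the 14.3% of 93211 regions of the genome that passed the same rule. IL1B, which encodes the interleukin that raises the members in epithelia, had an upstream region listed in sgFLI1 (20 tags) and sgFLI1-IFN-γ (17) only. CSF2, the gene of a granulocyte and macrophage growth factor, had a promoter peak of 20, 18, 40 and 28 tags. NFKB1 had an intragenic region with 11 tags in WT and 13 after IFN-γ, and another with 9 in WT and 8 in sgFLI1. NFKBIZ, an atypical inhibitor protein that works with NF-κB, had one with 18 tags in WT and 20 in sgFLI1. JUN, an AP-1 subunit, had a region past its start site listed with 99 tags in WT and 102 in WT-IFN-γ, at a fold of only 1.64 and 1.82 over a high local background.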

How the data were processed

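Peak lists of 4 ATAC-seq samples were used, 1 per group, and each list was treated as 1 library. The authors, as their methods and the submitters' processing notes give it, used Trimmomatic 0.3 for trimming and Bowtie2 2.3.4.1 for alignment to GRCh38, removed alignments with a mapping quality under 30 and duplicates (Picard), and called peaks with MACS2 2.1.2 at a q-value cutoff of 0.05. They then kept peaks reproducible at an irreproducible discovery rate (IDR) of at most 0.05. Whether the deposited lists come from before or after that step, from 1 replicate or pooled ones, and whether a transposase shift was applied to the tags (which could move summits by a few bases), is not given in the sources used here. In each deposited list the authors gave a score, a fold enrichment (a ratio to local background), and the p-value and q-value as −log10.

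From fold and p, the summit pileup and local background of each peak were recovered (within 0.001 for all peaks but 1, which is in sgFLI1-IFN-γ). Pileups were divided by tags per kb, with the shortest peak taken as the tag length, which is an assumption about the peak caller. A counterpart shared at least 1 base. Intervals were exact Poisson and, for ratios, Clopper-Pearson (95%, SciPy 1.17.1). They cover counting error only and no p-value was computed. Genes were from GENCODE 44. In simulated data, 5000 of 5000 pileups were recovered and 968 of 1000 ratio intervals held the true value. Regions of the pathway genes were named when listed in both libraries of 1 genotype or treatment only, or at least 2-fold apart with Poisson intervals that did not overlap. Members, lists and motifs were chosen with earlier results of these data known. Alternatives covered the q limit, window, overlap, depth, scaling and motif distance. Some region sequences are not reported here.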

Additional observations from a re-analysis of the deposited data

Results flagged for a closer look

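At 4 regions the direction of a log2 ratio of scaled pileups differed between the 2 genotypes or between the 2 treatments, with 1 library in each group, and the difference was not tested. The CXCL3 promoter had 0.23 for IFN-γ in WT and -0.02 in sgFLI1. The CXCL2 promoter had 0.23 for IFN-γ in WT and -0.1 in sgFLI1, and 0.23 for sgFLI1 against WT in untreated cells and -0.09 under IFN-γ. The region 10.4 kb upstream of CXCL2 had 0.21 for IFN-γ in WT and -0.32 in sgFLI1. The region 18.3 kb upstream of CXCL3 had -0.37 for sgFLI1 against WT in untreated cells and 0.04 under IFN-γ. All of these intervals held 1. Centred on the median of all shared peaks, the IFN-γ ratios had one sign in both genotypes at the CXCL3 promoter (0.3 and 0.12) and at the CXCL2 promoter (0.3 and 0.04). On the local background scale the ratios of sgFLI1 to WT had one sign in both treatments at the CXCL2 promoter (0.25 and 0.6) and at the region upstream of CXCL3 (0.26 and 0.02), as did the IFN-γ ratios at the CXCL2 promoter (-0.39 and -0.03). At the region upstream of CXCL2 the signs still differed on both scales. For IFN-γ at the CXCL3 promoter they still differed on the local background scale (0.34 in WT and -0.09 in sgFLI1). For sgFLI1 against WT they still differed when centred on the median. These values were 0.18 untreated and -0.07 under IFN-γ at the CXCL2 promoter, and -0.42 and 0.06 upstream of CXCL3.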

How the results depend on the processing

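No paired analysis was possible because each group had 1 library. The alternatives covered counts of peaks in the locus and the member windows, and counts of locus peaks without a counterpart. Of these, 78 stayed within 1.5 times the reported count and 10 did not. Most of the 10 were counts of peaks without a counterpart. At a −log10 q of at least 10, sgFLI1 and sgFLI1-IFN-γ kept 5 locus peaks each. With a counterpart required to share at least 50% of each peak, 2 WT-IFN-γ peaks had none in WT, 1 WT peak had none in WT-IFN-γ, and 2 WT-IFN-γ peaks had none in sgFLI1-IFN-γ. With a −log10 q of at least 5 in both lists, 2 WT-IFN-γ peaks had none in WT, 2 sgFLI1 peaks had none under IFN-γ, and 0 sgFLI1-IFN-γ peaks lacked one in WT-IFN-γ. With that limit on the peak alone, sgFLI1-IFN-γ had 0 without a counterpart in sgFLI1 and 0 in WT-IFN-γ. The cause was not tested beyond these settings. Of 25 region ratios, the sign changed in 4 when centred on the genome, in 4 when centred on chromosome 4, in 6 on the local background scale, and in 8 with both, an alternative chosen after seeing the data. On the local background scale 4 left their counting interval. The lowest pileup listed was 7 or 8 tags, so the regions of 10 or 11 tags past CXCL5 and CXCL1 lie near the limit that depth sets.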
